A study of Mus musculus with 16 samples.

Results

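Cytochrome P450 genes were followed in the livers of cafestol-fed mice. The family was taken as every gene whose probe carried 1 gene symbol beginning with Cyp and a digit, together with the reductase gene Por. Left out by name were Cyp7a1, Cyp7b1, Cyp39a1, Cyp2b9, Cyp2b10, Cyp3a11 and Cyp51. This gave 21 genes of 6734 named genes on the array, each with 1 probe: 2 of the Cyp1 family, 11 of Cyp2, 2 of Cyp3, 4 of Cyp4 and 2 others. No probe used here carried the symbol Por. The animals were female APOE3Leiden (E3L) mice on a C57BL6/JIco background, whose transgene gives them the human apolipoprotein variant E3Leiden. From 10 weeks of age, 7 control mice received diet W, a Western-type diet with 15 g of fat and 0.25 g of cholesterol per 100 g, for 4 weeks. The other 8 mice received the same diet with 0.04% cafestol and 0.02% kahweol, the diterpenes of coffee oil. Each cafestol-fed liver was hybridised on 2 cDNA arrays (16 in all) against liver RNA of the control diet. No label names single control mice or says whether their RNA was pooled, and both groups carried the transgene, so no mouse without it was compared.

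Cytochromes P450 are heme enzymes that insert an oxygen atom into their substrates, most of them in the endoplasmic reticulum of hepatocytes. Electrons reach them from NADPH through the reductase Por and cytochrome b5, or through ferredoxin in mitochondria. The Cyp1, Cyp2 and Cyp3 families are known for oxidising drugs, toxins and steroids, Cyp4 for the terminal hydroxylation of fatty acids and eicosanoids, and several others for a defined step of steroid, bile acid or retinoid metabolism. Many of the genes are switched on by ligand-activated receptors, among them AHR, CAR, PXR, PPAR-alpha and the retinoic acid receptors.

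Start-site windows of 3 members are shown because these genes were among the family's most positive in the diet comparison and their windows hold recognisable letters. They come from RefSeq (GRCm38.p6, 250 bases before to 50 after the start), which held a window for 19 of the 21 members. Cyp17a1, the most positive member, and Cyp4a14 had no window and were not searched. In Cyp26a1 (chr19:37697558-37697857, plus strand) the capitals mark the retinoic acid receptor core AGTTCA, read on the opposite strand as TGAACT and repeated in 1 orientation with 5 bases between the copies. In Cyp2c68 (chr19:39741052-39741351, minus strand) and Cyp2c69 (chr19:39886720-39887019, minus strand) they mark CAAAGTCCA, a letter pattern known from sites of the liver factor HNF4.
Cyp26a1: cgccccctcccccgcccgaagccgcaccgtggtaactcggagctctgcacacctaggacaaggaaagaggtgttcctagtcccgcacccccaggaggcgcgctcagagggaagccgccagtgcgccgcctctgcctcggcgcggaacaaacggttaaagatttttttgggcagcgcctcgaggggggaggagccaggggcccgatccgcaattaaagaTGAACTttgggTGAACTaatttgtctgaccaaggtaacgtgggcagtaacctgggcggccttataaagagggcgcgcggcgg
Cyp2c68: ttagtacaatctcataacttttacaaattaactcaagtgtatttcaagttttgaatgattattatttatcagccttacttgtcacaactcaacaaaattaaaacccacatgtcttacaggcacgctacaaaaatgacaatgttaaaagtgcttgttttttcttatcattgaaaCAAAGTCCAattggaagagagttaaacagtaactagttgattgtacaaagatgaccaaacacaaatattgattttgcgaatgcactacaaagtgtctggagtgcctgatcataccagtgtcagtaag
Cyp2c69: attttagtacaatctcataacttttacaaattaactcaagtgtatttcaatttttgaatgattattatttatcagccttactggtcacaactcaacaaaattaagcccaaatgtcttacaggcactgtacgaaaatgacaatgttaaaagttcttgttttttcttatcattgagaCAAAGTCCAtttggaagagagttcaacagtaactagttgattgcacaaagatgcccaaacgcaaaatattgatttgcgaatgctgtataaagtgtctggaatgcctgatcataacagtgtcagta
This repeat was searched on both strands, only in the exact spelling that Cyp26a1 carries. It lay in the windows of 8 of 27025 genes (0.0296%), Cyp26a1 among them and no other member. Repeats of other spellings were not searched, so this share does not measure how rare retinoic acid receptor sites are. The CAAAGTCCA pattern, searched on both strands after the windows had been read, lay in 150 of 27025 (0.555%) and in 3 members, Cyp2c65, Cyp2c68 and Cyp2c69. Its count among members is therefore not a test, and Cyp2c65 did not pass in the diet comparison (mean 0.05). The windows of Cyp2c68 and Cyp2c69 were 91.1% identical over their alignment, and RefSeq places 1 protein-coding gene between Cyp2c68 and Cyp2c69. The next most alike pair of members shared 51.3%. The core AGTTCA alone lay in 3 of 19 members with a window and in 15.7% of all genes, AGGTCA in 3 (18.1%), GCGTG in 4 (35.2%), TGACNNNGC in 3 (14%) and TATAAA in 7 (15.7%), all on both strands. TTATGNAA, searched in the same way, lay in 2 members and in 3.99% of all genes. AGTTCA is part of the repeated pattern. A match is a run of letters, not a proven site, and no match speaks only of this window.

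All 16 arrays carried the control RNA in Cy3 and the cafestol RNA in Cy5, and 0 had the dyes swapped, so a dye effect particular to a probe cannot be told apart from a diet effect. Which channel is the numerator of the deposited log2 ratio is not stated. Signs are therefore printed as deposited, and "positive" and "negative" below refer to that sign and not to a rise or fall under cafestol. For orientation, the glutathione S-transferase Gstm1 stood at -2.48 ± 0.23 and Cyp7a1, which catalyses the first step from cholesterol to bile acids, at 1.56 ± 0.38 (SD, n = 8 mice). The ratios carry no level of either channel, so the liver label could not be checked against marker levels and whether a P450 probe exceeded background is unknown. Between 8094 and 9314 of 9596 probes had a value per array. Values came in steps, of which the smallest from 0 was 0.138, and 31.8% of all values were exactly 0. Precision is limited by how many mice and arrays there were. The correlation of a mouse with the others, over features measured in all mice, ranged from a mean of 0.50 (TP4215) to 0.69 (TP4168). SY518Z lay within that range at 0.63. The lowest correlation between 2 mice was 0.20 (TP4215 and SY524ROB+L), and between 2 arrays, over all probes, 0.15.

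Over the family the ratios leaned to the positive side. Of the 20 members with values in at least 6 mice, 8 were positive, 1 was negative and 11 did not pass (limma, mean ratio of 8 mice against 0, adjusted p under 0.05 over 8348 features). The median member had a log2 ratio of 0.13, against -0.02 for all features tested. The share called in either direction, 9 of 20 or 45%, was close to the 43.4% of all features, and says nothing particular about the family. By sign, 40% of tested members were positive against 18% of all features, and 5% negative against 25.4%. Mean log2 ratios of at least 0.4 in size were found for 5 of 20 members and 2.4% of all features. In a bulk liver sample, a difference in the number of cells of a type and a difference in RNA per cell cannot be told apart.

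**Figure D1:**
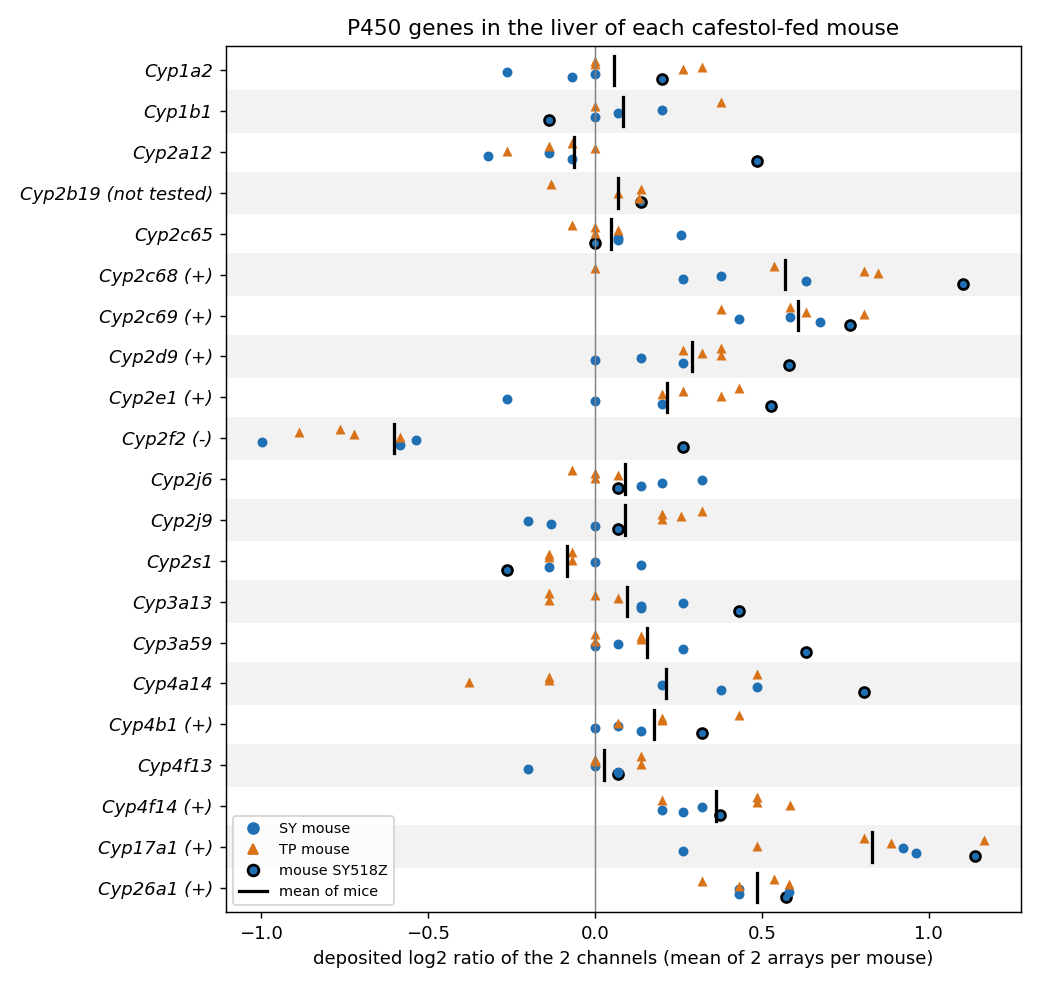
Deposited log2 ratio (horizontal axis) of each P450 gene in each cafestol-fed mouse, as the mean of its 2 arrays; circles are SY mice, triangles TP mice, the black ring is mouse SY518Z and the vertical stroke is the mean. Signs in brackets mark genes past the adjusted p of 0.05; Cyp17a1 lies farthest to the right at 0.83 and Cyp2f2 farthest to the left at -0.60.

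The family spanned from -0.60 for Cyp2f2 to 0.83 for Cyp17a1. Against a minimum difference of 1.2-fold in place of 0, 3 members passed, Cyp17a1, Cyp2c69 and Cyp26a1, and 1.47% of all features did. The 4 members with the same sign in every mouse were these 3 and Cyp4f14 (18.4% of all features had 1 sign throughout).

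**Figure D2:**
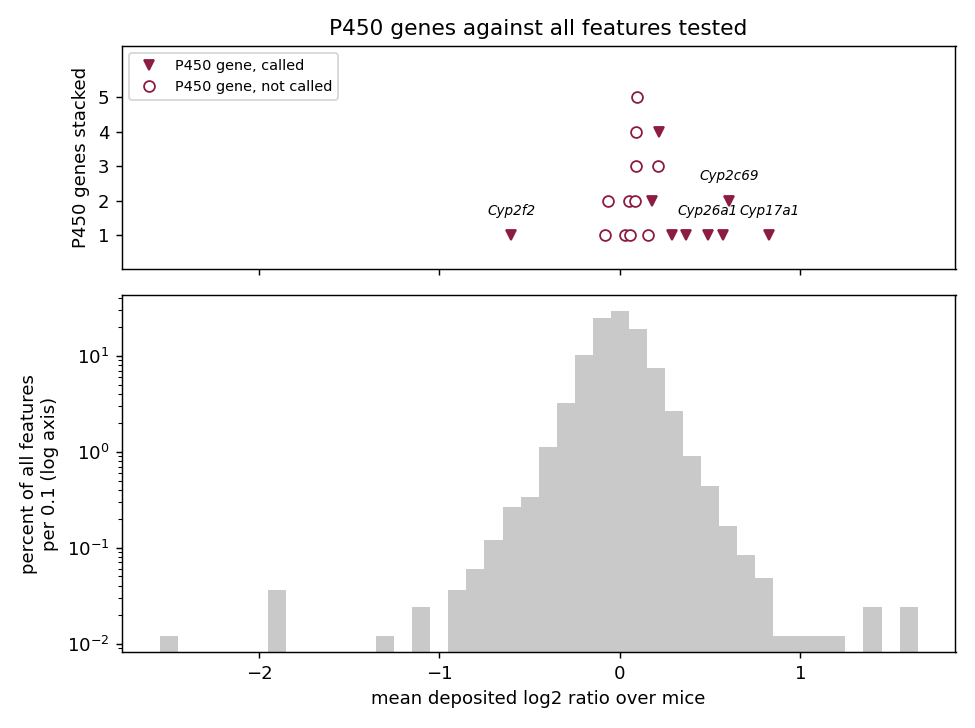
Mean deposited log2 ratio over mice (horizontal axis) of the 20 tested P450 genes (top, stacked so that none overlap, filled where called) and of all 8348 features (bottom, percent per 0.1, log axis). Most members lie between -0.1 and 0.4, and Cyp17a1, Cyp2c69, Cyp2c68, Cyp26a1 and Cyp2f2 lie in the thin tails of the distribution.

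Mouse SY518Z stood apart from the other mice in this family. It alone had the highest ratio for 8 of the 19 members measured in all mice, while no other mouse was alone highest for more than 2. Over all features measured in all mice it was alone highest for 6.2%, within the range of the others (2.21% to 19.9%). Its median over the tested members was 0.40, against 0 to 0.35 in the other mice, while its median over all features was the lowest (-0.069). At the other end, SY522ROB alone had the lowest ratio for 6 of these 19 members, and no other mouse did for more than 3. SY518Z is also the only mouse whose arrays carry different codes (bl7 and c3z). Its 2 arrays gave the same value for Cyp17a1 (1.14), Cyp2c69 (0.77), Cyp2a12 (0.49) and Cyp2f2 (0.26), and differed most for Cyp26a1 (0.77 and 0.38). Over all members and mice, 142 of 158 pairs of arrays lay within 0.14 of each other, and 77 were equal. In the same mouse the mean ratios of the marker lists for macrophages (-0.31), stellate cells and fibroblasts (-0.46), endothelium (-0.13), bile duct (-0.30) and lymphocytes (-0.17) were the lowest of the 8 mice. Their part in the P450 values was not tested. Without SY518Z, 7 members were positive and 2 negative.

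**Figure D3:**
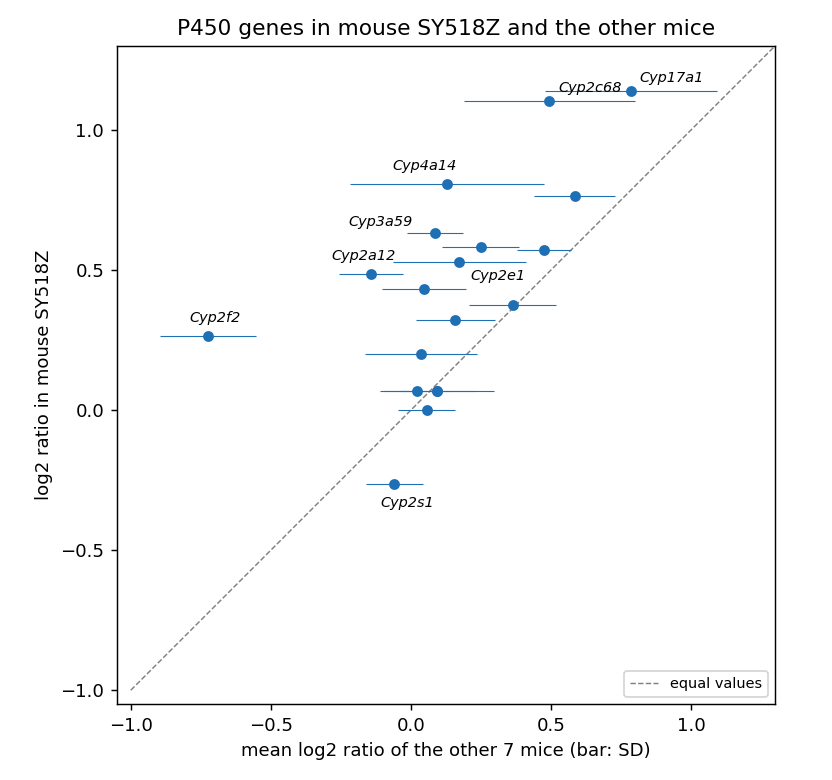
Log2 ratio in mouse SY518Z (vertical axis) against the mean of the other 7 mice (horizontal axis, bars are SD) for the 19 P450 genes with values in 8 mice; the dashed line marks equal values. Most genes lie above the line, Cyp2f2 farthest (0.26 against -0.73), and Cyp2s1 lies below it (-0.26 against -0.06).

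Neither Cyp1 gene passed. Cyp1a2, the pericentral enzyme that oxidises caffeine and aromatic amines, ranged from -0.26 in SY524ROB+L through a median of 0 to 0.32 in TP4168. Its mean of 0.06 ± 0.19 (SD, n = 8) had a 95% interval of -0.07 to 0.18 (limma). Cyp1b1, which oxidises oestrogens and polycyclic hydrocarbons mostly outside the liver, was measured in 6 mice on 8 arrays and averaged 0.085 ± 0.18 (adjusted p = 0.278). Cyp1 enzymes are the classic products of the dioxin receptor AHR. Of the other genes on a list of AHR targets, 2 were tested, with 1 positive and 1 negative (median -0.05). Over all features, 18% were positive and 25.4% negative.

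The Cyp2 family held members on either side: 4 of 10 tested were positive, 1 was negative and 5 did not pass, with a median of 0.09. Its most positive genes were the neighbours Cyp2c69 and Cyp2c68. Cyp2c69 (Entrez 100043108) lay between 0.38 in TP4205 and 0.81 in TP4163, with a median of 0.61. All 8 mice were positive and their values lay close together. The mean was 0.61 ± 0.15, a 1.52-fold difference (limma, adjusted p = 3.67e-06). Cyp2c68 (Entrez 433247) ran from 0 in TP4205 through a median of 0.58 to 1.10 in SY518Z. Its mean of 0.57 ± 0.35, a 1.49-fold difference, was nearly that of Cyp2c69, with a wider spread between mice (limma, adjusted p = 7.14e-04). Another member of the subfamily, Cyp2c65, known from the gut, stood at 0.05 ± 0.10 and did not pass (adjusted p = 0.277). The cDNA probes of close relatives can bind each other's transcripts, and whether these probes separate Cyp2c68 from Cyp2c69 was not tested. Nor was this tested for the probe of any other member, Cyp2d9 included.

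Cyp2d9, a male-biased steroid hydroxylase measured here in females, was positive in 7 of 8 mice and 0 in SY522ROB. Its median was 0.29 and its highest value 0.58 in SY518Z. The mean was 0.29 ± 0.17, a 1.22-fold difference (limma, adjusted p = 9.77e-04). Cyp2e1, the pericentral enzyme that oxidises ethanol and acetone, gave -0.26 in SY524ROB+L, a median of 0.23 and 0.53 in SY518Z. With 6 mice positive, 1 negative and 1 at 0, its mean of 0.22 ± 0.25 passed only narrowly (limma, adjusted p = 0.0292). It passed without SY524ROB+L or without SY522ROB, and failed to pass when any of the other mice was left out: TP4163, TP4205, TP4168, TP4215, SY518Z or SY521RL (adjusted p 0.052 to 0.0806).

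Cyp2f2 (Entrez 13107), the periportal enzyme that activates naphthalene and is abundant in club cells of the airway, was the negative member. Its values ran from -0.998 in SY522ROB through a median of -0.65 to 0.26 in SY518Z. The other 7 mice lay between -0.998 and -0.54, and SY518Z was the exception on both of its arrays. The mean was -0.60 ± 0.38, a 1.52-fold difference (limma, adjusted p = 8.38e-04). Without SY518Z it was -0.73 ± 0.17 (adjusted p = 1.59e-05), and in the SY mice alone, SY518Z included, the gene did not pass (-0.46 ± 0.53, adjusted p = 0.165). Cyp2a12, a steroid hydroxylase that RefSeq places next to Cyp2f2, showed the same exception. It was negative in 6 mice, 0 in 1 and 0.49 in SY518Z, with a mean of -0.06 ± 0.25 (adjusted p = 0.487), and passed without SY518Z (-0.14 ± 0.11, adjusted p = 0.0191).

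The remaining Cyp2 members were small in size. The adjacent arachidonic acid epoxygenase genes Cyp2j6 and Cyp2j9 had means of 0.09 ± 0.13 and 0.09 ± 0.19 and did not pass (limma, adjusted p = 0.0942 and 0.215), though Cyp2j6 did without TP4215 (0.11, adjusted p = 0.0419). Cyp2s1, expressed mainly in epithelia outside the liver, was negative in 6 mice and averaged -0.08 ± 0.12 (adjusted p = 0.104), passing without SY522ROB (-0.12, adjusted p = 0.0221). Cyp2b19, known from skin, had values in 5 mice on 9 arrays, from -0.13 to 0.14, and was not tested.

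The 2 Cyp3 members, of the subfamily that oxidises many drugs, did not pass. Cyp3a59 was positive in 5 mice, 0 in 3 and negative in 0, with a mean of 0.15 ± 0.21 (95% interval 0.02 to 0.29 before adjustment; limma, adjusted p = 0.0631). SY518Z, at 0.63, carried much of that mean, which was 0.09 ± 0.10 in the other 7 mice. Cyp3a13 ran from -0.14 in TP4215 and TP4163 through a median of 0.10 to 0.43 in SY518Z. Its mean of 0.10 ± 0.19 did not pass (adjusted p = 0.198).

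Of 4 Cyp4 genes, 2 were positive, 0 negative and 2 did not pass, with a median of 0.20. Cyp4f14, a hydroxylase of leukotrienes and other fatty acids (Entrez 64385), lay between 0.20 in TP4205 and SY522ROB and 0.59 in TP4163, with a median of 0.35. It was positive in 8 of 8 mice, with a mean of 0.36 ± 0.14, a 1.29-fold difference (limma, adjusted p = 8.02e-05). Its adjacent relative Cyp4f13 stood at 0.03 ± 0.11, with a 95% interval of -0.06 to 0.11, below the whole interval of Cyp4f14 (0.27 to 0.46). Cyp4b1, better known from the lung, where it activates plant toxins, was 0 in SY522ROB and positive in the other 7 mice, up to 0.43 in TP4215. Its mean was 0.18 ± 0.14 (limma, adjusted p = 0.00749), and it did not pass in the SY mice alone (0.13, adjusted p = 0.165).

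Cyp4a14, a fatty acid hydroxylase strongly induced through PPAR-alpha, had the largest SD between mice of any member, though Cyp2f2 spanned a wider range. It ran from -0.38 in TP4163 through a median of 0.29 to 0.81 in SY518Z, with 5 mice positive and 3 negative. The mean of 0.21 ± 0.40 did not pass (limma, adjusted p = 0.14), and passed without TP4163 (0.30, adjusted p = 0.0404). Other PPAR-alpha targets went both ways: of 14 tested, 5 were positive and 4 negative, with a median of -0.05. The shares of all features were 18% and 25.4%. By mouse the list averaged from -0.17 in TP4163 to 0.32 in SY518Z. SY518Z was alone highest for 8 of the 19 members measured in all mice, so its high value is not particular to Cyp4a14. The other mice are not compared here, and a link between the list and Cyp4a14 was not tested.

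Both members outside these families were positive. Cyp17a1 (Entrez 13074), the hydroxylase and lyase of androgen synthesis, which adult rodent livers also express, was 0.26 in SY522ROB, 0.91 at the median and 1.17 in TP4205. No mouse was at or below 0. The mean of 0.83 ± 0.31, a 1.78-fold difference, was the largest of the family (limma, adjusted p = 2.68e-05) and ranked 21 of 8348 features by size. Cyp26a1 (Entrez 13082), which degrades retinoic acid and is a classic target of the retinoic acid receptors, lay between 0.32 in TP4205 and 0.58 in TP4168 and SY522ROB, with a median of 0.48. Its mean of 0.49 ± 0.10, a 1.40-fold difference, had the smallest spread of any called member (limma, adjusted p = 2.46e-06).

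The mouse identifiers fall into an SY and a TP series of 4 mice each, whose meaning no label states. Array codes follow them except in SY518Z, so series and array code cannot be told apart. Of 19 members tested, 2 differed between the series, or 10.5%, against 4.96% of all 8240 features, 1.1% with SY higher and 3.86% with SY lower (limma, adjusted p under 0.05). Cyp2j9 was lower in the SY mice, which lay from -0.20 to 0.07, than in the TP mice, which lay from 0.20 to 0.32. The difference, SY minus TP, was -0.31 (SE 0.07, means -0.07 and 0.24, limma, adjusted p = 0.0262). Cyp3a13 was higher in the SY mice (0.14 to 0.43) than in the TP mice (-0.14 to 0.07), by 0.29 (SE 0.08, means 0.24 and -0.05, limma, adjusted p = 0.0495). Both calls were fragile. Cyp2j9 passed only without SY518Z or TP4163 among the 8 fits that left out 1 mouse, and Cyp3a13 only without SY518Z.

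**Figure D4:**
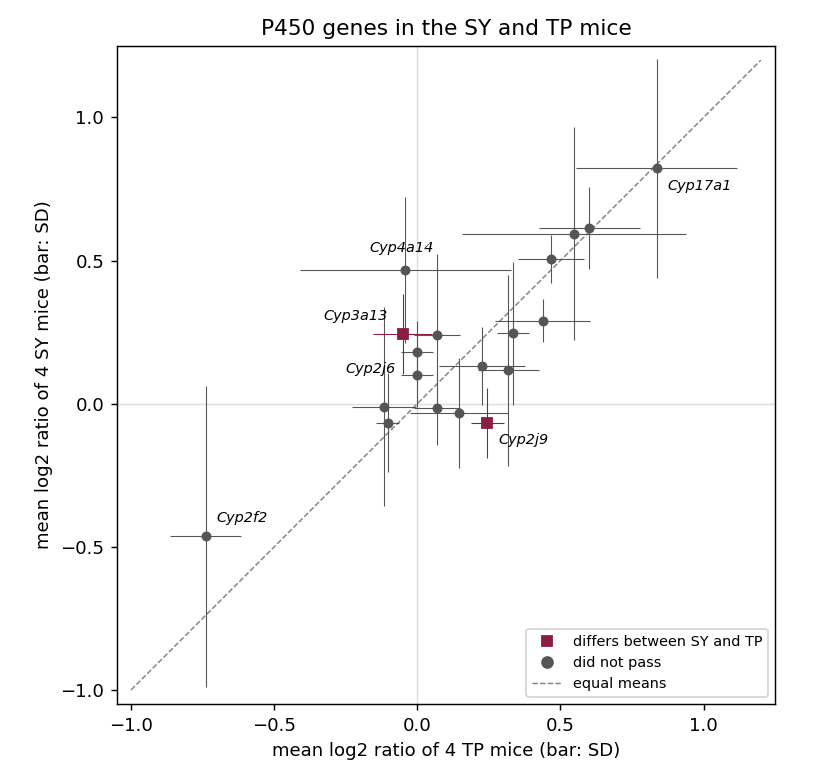
Mean log2 ratio of the 4 SY mice (vertical axis) against that of the 4 TP mice (horizontal axis) for the 19 P450 genes tested between the series; bars are SDs, the dashed line marks equal means and squares mark genes that differed. Cyp2j9 (-0.07 against 0.24) and Cyp3a13 (0.24 against -0.05) lie on opposite sides of the line, and Cyp4a14 lies farthest above it.

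Cyp2j6, next to Cyp2j9 in the genome, ran the other way (0.18 in SY and 0 in TP mice; 95% interval of the difference 0.04 to 0.32 before adjustment, adjusted p = 0.11, and 0.0379 without SY518Z). Cyp2e1, at 0.12 and 0.32, did not differ by the test with all mice (adjusted p = 0.361) and did without SY518Z (-0.34, adjusted p = 0.0454). The largest difference in size was that of Cyp4a14, with 0.47 ± 0.25 in SY and -0.04 ± 0.37 in TP mice (difference 0.51, adjusted p = 0.0924). It passed without TP4215 (0.69, adjusted p = 0.0291). The 4 genes most positive over all mice did not pass. Their SY and TP means were 0.82 and 0.84 for Cyp17a1, 0.61 and 0.60 for Cyp2c69, 0.59 and 0.55 for Cyp2c68, and 0.50 and 0.47 for Cyp26a1. The 95% interval of the difference was -0.39 to 0.36 for Cyp17a1, -0.19 to 0.22 for Cyp2c69, -0.38 to 0.47 for Cyp2c68 and -0.11 to 0.19 for Cyp26a1. With quantile normalization the differences were 0.10, 0.14, 0.12 and 0.17 in the same order, and none passed. In the SY mice alone, 8 members were positive and 0 negative, against 9.49% and 15.4% of all features in the same fit. These 8 held Cyp2j6, Cyp3a13 and Cyp4a14 in place of Cyp2d9, Cyp2e1 and Cyp4b1. In the TP mice alone, 9 were positive and 2 negative, against 15.8% and 21.6%.

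Genes that serve the P450 enzymes lay on either side of 0. Of 12 listed electron partners, 4 were tested. Among these, 3 were negative and 0 positive (median -0.11), against 25.4% and 18% of all features. The negative ones were Pgrmc1, a heme-binding membrane protein that associates with P450 enzymes (-0.34 ± 0.18), the mitochondrial ferredoxin Fdx1 (-0.12 ± 0.11) and the cytochrome b5 reductase Cyb5r3 (-0.10 ± 0.08). Of 9 heme genes, 2 were positive and 2 negative (median 0.04), shares near the 18% and 25.4% of all features. The heme synthesis enzymes Cpox (0.30 ± 0.09) and Ppox (0.12 ± 0.09) were positive, while the heme-degrading Hmox1 (-0.37 ± 0.28) and the mitochondrial porphyrin-binding protein Tspo (-0.17 ± 0.11) were negative. Alas1, the rate-limiting enzyme of heme synthesis in liver, stood at 0.24 ± 0.54 and did not pass (limma, adjusted p = 0.212). Of 16 regulators of P450 genes, 5 were positive and 3 negative (median 0.08), against 18% and 25.4% of all features. The positive ones were the xenobiotic receptor PXR (Nr1i2, 0.22 ± 0.20), the bile acid receptor FXR (Nr1h4, 0.19 ± 0.15), the glucocorticoid receptor Nr3c1 (0.19 ± 0.06), the growth hormone receptor Ghr (0.13 ± 0.08) and Hnf4a (0.10 ± 0.08). The most negative was the vitamin D receptor Vdr (-0.18 ± 0.16). Several of these means are smaller in size than 0.138, the smallest step from 0 of a single array.

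Markers of other liver cells had negative medians; over all features, 25.4% were negative and 18% positive. Of 16 macrophage markers 9 were negative and 2 positive (median -0.18; mean over the list from -0.31 to 0.10 by mouse), of 15 stellate cell and fibroblast markers 9 and 0 (median -0.20; -0.46 to -0.06 by mouse), and of 10 lymphocyte markers 6 and 1 (median -0.10). Endothelial markers had 2 of 8 negative and 0 positive, and bile duct markers 3 of 6 negative and 1 positive (medians -0.04 and -0.10). The endothelial share lay near that of all features. Hepatocyte markers had 5 of 13 positive and 3 negative (median 0.12) and ran far to either side, from -0.82 for Hpx to 0.73 for Hpd. The part of cell composition in the P450 ratios was not tested.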

How the data were processed

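Liver poly(A) RNA of 8 cafestol-fed mice was compared with control-diet RNA on 16 arrays. The deposited values are log2 ratios, whose normalization, background treatment and direction no source used here gives. They were taken unchanged. Over the features tested, the median of a mouse lay between -0.069 (SY518Z) and 0. The platform annotation of 2007 supplied gene names. Probes of a gene were averaged, then the 2 arrays of each mouse, which shared RNA. Of 8923 features (genes, or probes without a name), 575 were dropped because fewer than 6 mice had a value. In R 4.3.3, limma 3.58.1 tested the mean ratio against 0 by a two-sided moderated test, and p was adjusted over 8348 features by Benjamini-Hochberg. This p leaves out the spread among control mice. The same model compared 4 SY with 4 TP mice, with values in at least 3 of each. SD is over mice, and intervals are 95% intervals of limma. Both fits were tested on simulated data.

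Members and gene lists were chosen with earlier results of these data known, and no list was tested as a set. Described in full were called members, members that differed between the series, and uncalled members with a mean of at least 0.3 in size or an SD over 0.4. Outside the family, up to 6 called genes per list were named by size, and Alas1 was added after its values were seen. A further 7 probes that list a P450 among several genes were not members. Promoter windows were aligned with Biopython 1.88, and figures drawn with matplotlib 3.10.9. Other settings changed the centring or scaling, used quantiles, single probes, other limits on blanks or robust moderation, left out each mouse, handled array replicates otherwise, set a minimum fold, split or modelled the series, or let the control vary.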

Additional observations from a re-analysis of the deposited data

Results flagged for a closer look

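In 6 of 21 members, 1 mouse lay farther from the others than Dixon's 95% limit allows, or 28.6%. Over all features measured in 4 or more mice, 7.29% had such a mouse. Chance alone gives about 1 in 20 groups of normally distributed values, which these stepped values are not. Mouse SY518Z was the high value for 3 of the 6 members: Cyp2f2 (0.26, nearest mouse -0.54), Cyp2a12 (0.49, nearest 0) and Cyp3a59 (0.63, nearest 0.26). The others were Cyp2c65 in SY524ROB+L (0.26, nearest 0.07), Cyp4f13 in SY522ROB (-0.20, nearest 0) and Cyp2b19, measured in 5 mice, in TP4215 (-0.13, nearest 0.07). Values come in steps, of which the smallest from 0 is 0.138, so such gaps are coarse for genes near 0. Between the SY and TP series, Cyp2j9 (SY minus TP -0.31) and Cyp3a13 (0.29) differed by limma's test of the difference.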

How the results depend on the processing

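Apart from fits without 1 mouse, other settings left the call of a member's diet ratio as it was in 290 comparisons, added a call in 14 and ended it in 12. For SY minus TP the counts were 200, 3 and 6. The sign changed in 7 and 3 of these comparisons, none of a member called in the reported fit. With all mice, 8 members were positive and 1 negative. Against a minimum of 1.2-fold these were 3 and 0, in SY mice alone 8 and 0, in TP mice alone 9 and 2. The 8 in SY mice were not the 8 of all mice. There Cyp2d9, Cyp2e1 and Cyp4b1 did not pass (limma, adjusted p = 0.133, 0.559 and 0.165). Cyp2j6, Cyp3a13 and Cyp4a14 passed in their place (limma, adjusted p = 0.048, 0.0405 and 0.0319). Positive members rose in number to 12 with the series as a term and to 10 with trimmed mean centring or with the mouse as a random block. At limma's unadjusted p under 0.05, negative members numbered 0 in SY mice alone and 1 against the minimum fold. Leaving out each mouse gave 7 to 8 positive and 1 to 2 negative members, 2 without SY518Z (Cyp2a12 added) or SY522ROB (Cyp2s1 added). If the control varied as 7 mice would, 6 were positive: Cyp2e1 (adjusted p = 0.166) and Cyp4b1 (0.0749) did not pass. All features called numbered 3622, against 4165 with the series as a term, 123 with the minimum fold, 2159 in SY mice alone, 1805 with a varying control and 3038 to 3776 with a mouse left out. Members that differed between SY and TP mice numbered 2, against 1 with trimmed mean centring, 1 among genes with values in 8 mice, 0 from the first array of each mouse and 0 from the second (limma, unadjusted p under 0.05 in 4 and 5), 3 with a common SD, quantile normalization or the mouse as a random block, where Cyp4a14 passed (adjusted p = 0.042, 0.0319 and 0.0178), and 0 to 4 with a mouse left out (4 without SY518Z). Over all features these were 409, against 0 from first arrays (1437 at an unadjusted p under 0.05), 218 from second arrays, 657 with the mouse as a random block, and 55 to 1275 with a mouse left out: the count was 55 without SY521RL, 56 without SY524ROB+L, 60 without SY522ROB, 76 without TP4205, 180 without TP4215, 188 without TP4168 and 1275 without SY518Z. Smaller fits hold fewer arrays or mice, and otherwise the cause was not tested. Scaling arrays to 1 median absolute value changed nothing, since these were all equal. No paired analysis was possible because the 8 mice form 1 group and control RNA has no replicate number.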

Other observations

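A further 7 probes listed a P450 among several genes and cannot be given to 1 gene. The 2 probes shared by a pair of Cyp2a genes were the most negative of these 7: -0.84 ± 0.40 and -0.74 ± 0.40 (SD, n = 8; limma, adjusted p = 1.15e-04 and 3.01e-04), negative in 8 of 8 mice. SY518Z was again the highest mouse on both (-0.32 and -0.20) and SY522ROB the lowest (-1.38 and -1.26), the same mice as for Cyp2f2. Both probes of a pair of Cyp2c genes did not pass (-0.09 ± 0.42 and 0.23 ± 0.38), with SY518Z highest at 0.68 and 0.92. A probe shared by a pair of Cyp4a genes was positive (0.31 ± 0.35; limma, adjusted p = 0.022), at 0.53 in SY and 0.09 in TP mice, a difference that did not pass (adjusted p = 0.0976). A probe shared by 3 Cyp2d genes stood at 0.06 ± 0.22 and did not pass (limma, adjusted p = 0.495). The probe that pairs a P450 with a gene outside its subfamily was positive in every mouse (0.28 ± 0.08, limma, adjusted p = 4.88e-05).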
